A study of Mus musculus with 21 samples.

Results

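Tubulin isotypes are the alternative alpha and beta subunits from which microtubules are built, and 10 of their genes were followed here: the alpha tubulin genes Tuba1a, Tuba1b, Tuba1c, Tuba4a and Tuba8, and the beta tubulin genes Tubb2a, Tubb2b, Tubb3, Tubb5 and Tubb6. The genes were picked by symbol, and all 10 were found among the 42760 genes of the Peril and Fendrr tables and among the 40770 genes of the linc-Brn1b table. They were picked because Tuba1c stood far above wild type in the linc-Brn1b-/- brain at postnatal day 7 (P7), so that difference is a description and supports nothing by itself. RNA was sequenced from 21 libraries in 10 groups, a wild type and a knockout group for each of 5 tissues and ages. The brain of linc-Sox2+/+ and linc-Sox2-/- embryos was taken at E18.5 (the strain named Peril in the study), and the lung of linc-Foxf1a+/+ and linc-Foxf1a-/- embryos at E14.5 (named Fendrr). For linc-Brn1b+/+ and linc-Brn1b-/- mice the telencephalon was taken at E13.5 and E15.5 and the whole brain at P7. Each group held 2 libraries, except linc-Brn1b-/- at E15.5, for which the labels list 3 where the study's text gives 2, and which of them entered the pooled value is not known. In each strain a long intergenic noncoding RNA gene was replaced by a lacZ reporter and a neomycin resistance cassette in embryonic stem cells from a cross of a 129S6S v/Ev and a C57BL/6N parent, and the mice were then backcrossed for 1 generation to C57BL/6J. The deletion is carried in every cell, so no driver limits where it acts.

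Each table gives 1 value per group, the authors' pooled FPKM (fragments per kilobase of transcript, scaled for sequencing depth), and 0 columns of values per library. The spread between animals therefore cannot be computed, the authors' own test columns were not used, and every difference below is the ratio of 2 pooled values without a replicate check. A gene was counted as higher or lower where log2 of (FPKM + 1) differed by at least 1.5-fold and the mean of both groups was at least 1 FPKM. Levels are compared only within a table, since the tables were scaled separately. The headers name both groups of a comparison but not which value belongs to which. The first value was read as wild type and the second as knockout. In the linc-Brn1b table only this order gave each group 1 value over all comparisons that name it, and it was taken for the other tables too. In the Peril table the entry on the deletion, linc-Atp11b-4, goes against that reading, with 0.0109 FPKM in the group read as wild type and 4.65 in the other. That other group is called the group read as knockout. The study also measured Peril in the E18.5 brain by RT-PCR and reports the deletion from it. That measurement was not analysed here.

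Alpha and beta tubulin pair in a dimer that adds to the ends of microtubules. Tuba1a and Tubb3 are the isotypes best known from young neurons, and Tubb2a, Tubb2b and Tubb5 are also abundant in developing brain. Tuba1b and Tuba1c are expressed widely in dividing cells, Tuba4a is known from maturing neurons, and Tuba8 is a divergent alpha tubulin. Free tubulin dimers are known to lower the stability of tubulin messenger RNAs during translation, and chaperones such as prefoldin and the tubulin cofactors fold the subunits and join them. The coding sequences of several isotypes are almost the same, which matters for a measurement made from short reads.

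Tuba1a, Tuba1b and Tuba1c lie side by side on chromosome 15 (mm9, the build of the tables, which is NCBIM37). GENCODE places Tuba1b at chr15:98761856-98764996 and Tuba1a at chr15:98780272-98783982, both on the minus strand, and Tuba1c at chr15:98860322-98868536 on the plus strand, each with 4 exons. The linc-Brn1b table gives Tuba1b an interval that also holds Lmbr1l, and the Peril and Fendrr tables give Tuba1a and Tuba1b 1 common interval, chr15:98731990-98811589. Compared base by base from the start codon without gaps, the coding sequences of Tuba1b and Tuba1c were identical at 99.4% of 1290 bases, those of Tuba1a and Tuba1c at 98.4% of 1290, and those of Tuba1a and Tuba1b at 98.3% of 1296. Tuba4a was identical to Tuba1c at 86.3% of 1287 bases and Tuba8 at 80.2% of 1290. Over the first 1290 coding bases, 25 positions differed among Tuba1a, Tuba1b and Tuba1c. Tuba1a alone differed at 17 of them, Tuba1b alone at 5 and Tuba1c alone at 3.

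The amount of sequence that a read could not place by itself was counted with windows of 100 bases, about the length of 1 sequencing read of the study, as the share of all 100-base windows of the longest coding transcript found without a mismatch in the transcript of another gene or elsewhere in the genome. For Tuba1c 53.6% of 1878 windows were shared, for Tuba1a 55.0% of 1548 and for Tuba1b 74.4% of 1644. Within the coding sequence the shares were 80.4%, 67.8% and 85.8%. Of the windows not wholly inside the coding sequence, 0% of 627 were shared for Tuba1c, 0% of 291 for Tuba1a and 37.2% of 387 for Tuba1b. Tubb2a and Tubb2b shared 37.6% and 34.9% of their windows. For Tubb3 the share was 0.735%, and for Tuba4a, Tuba8, Tubb5 and Tubb6 it was 0%. The reads were paired and counted with Cuffdiff2 at its default settings, under which a read with several matches is divided evenly among the places it matches. A window stands for 1 read and not for a pair, and how far such division entered the values was not tested. In the P7 wild type, for example, Tuba1c stood at 3.23 FPKM beside 3636 for Tuba1a.

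**Figure D1:**
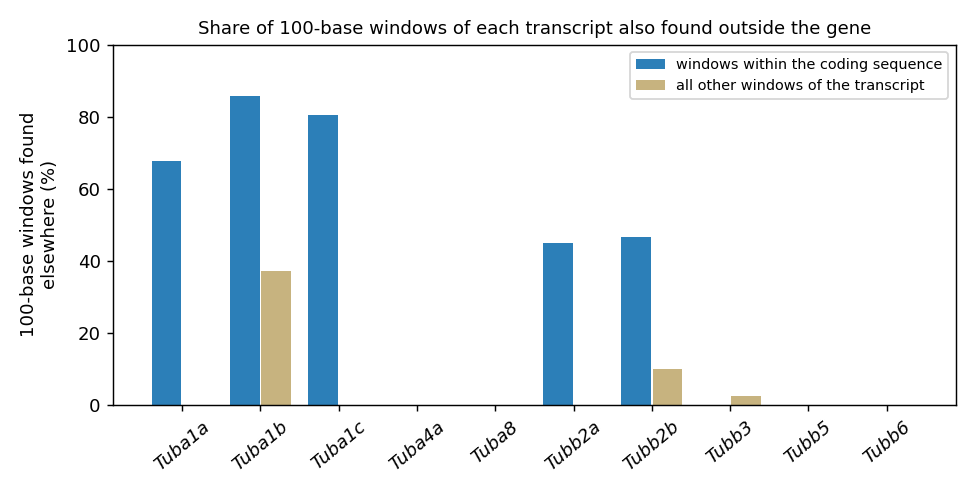
Share (percent) of the 100-base windows of each tubulin transcript that are also found without a mismatch outside the gene, for windows within the coding sequence and for all other windows. Tuba1a, Tuba1b and Tuba1c stand at 67.8% to 85.8% in the coding sequence, Tubb2a and Tubb2b at 45.0% and 46.7%, and the other members at 0%.

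Tuba1c was the member that differed most between genotypes of the linc-Brn1b strain. In wild type it stood at 22.8 FPKM in the E13.5 telencephalon, 11.1 in the E15.5 telencephalon and 3.23 in the P7 brain. In linc-Brn1b-/- it stood at 64.7, 10.7 and 52.4 FPKM at the same ages. The knockout was thus high at E13.5 and P7 and level with wild type at E15.5. In order of age the ratio of knockout over wild type was 2.84, 0.958 and 16.2, and with 1 FPKM added the log2 ratios were 1.46, -0.06 and 3.66. Ranked by log2 ratio among all genes with a mean of at least 1 FPKM, Tuba1c was number 8 of 14175 at P7, number 29 of 13502 at E13.5 and number 11098 of 13518 at E15.5. By level within the group it was number 7 of the 10 tubulin genes in both genotypes at E13.5, and at P7 number 9 in wild type and number 8 in knockout. Telencephalon and whole brain are different dissections, so age and tissue cannot be told apart between E15.5 and P7.

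The abundant relatives of Tuba1c stood below wild type in the same groups. Tuba1a, the main alpha tubulin of young neurons, stood at 2862 FPKM in wild type and 1456 in knockout at E13.5, a log2 ratio of -0.97, and at 3636 and 2423 at P7, a log2 ratio of -0.59 that lies just past the 1.5-fold limit (0.58). At E15.5 wild type had 4122 FPKM and the knockout value is listed at 0 with a flag for too many reads at the locus, which is a failed estimate and gives no ratio. Tuba1b stood at 395 and 171 FPKM at E13.5, 236 and 240 at E15.5, and 311 and 245 at P7, log2 ratios of -1.20, 0.03 and -0.34. At E13.5 Tuba1c was thus past the limit upward and Tuba1a and Tuba1b downward, and at P7 Tuba1c was past it upward and Tuba1a downward, with Tuba1b within it.

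Because Tuba1a is so abundant, the excess of Tuba1c was small beside the deficit of the other two. The difference of knockout minus wild type at P7 was 49.1 FPKM for Tuba1c, -1213 for Tuba1a and -65.6 for Tuba1b, and at E13.5 it was 41.9, -1406 and -224. The sum of Tuba1a, Tuba1b and Tuba1c was 3950 FPKM in wild type and 2721 in knockout at P7, or 68.9% of wild type, and 3279 and 1691 at E13.5, or 51.6%. Taken as a sum over the 3 near-identical genes, the log2 ratio at P7 was -0.54, the reverse of that of Tuba1c alone.

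A separate entry of the table lies on another copy of the same sequence. Stretches that match at least 25% of the 32-base words of the Tuba1c transcript were found at 8 places outside the gene, of which 2 were Tuba1a and Tuba1b, 5 were annotated as pseudogenes and 1 was not annotated. The noncoding entry linc-Nsfl1c-1, at chr2:151285374-151285782, lies within the pseudogene Gm14150 on chromosome 2, and 67.7% of its 310 windows of 100 bases were found in Tuba1b transcripts, 42.3% in those of Tuba1c and 21.9% in those of Tuba1a. Its level was 2.35 FPKM in wild type and 181 in linc-Brn1b-/- at E13.5, 2.26 and 2.47 at E15.5, and 2.04 and 188 at P7. It was thus high in the same 2 knockout groups as Tuba1c and low in the other 4. Outside this strain linc-Nsfl1c-1 stood at 3.06 and 1.74 FPKM in the Peril brain (wild type, then the group read as knockout) and at 0.765 and 0.447 in the Fendrr lung. The entry named Tuba3a, at chr12:4788976-4790318, also lies on a copy of these genes and stood between 1.92 and 2.58 FPKM in all 6 linc-Brn1b groups. On other copies, linc-Il31ra stood at 0 FPKM and linc-Arhgap32-2 and linc-Barx2-1 at no more than 0.0179 in these groups. Of the entries on copies, linc-Nsfl1c-1 was thus the only one high with Tuba1c. Whether reads of one copy were counted at another was not tested, and the values of Tuba1a, Tuba1b and Tuba1c are uncertain to that extent. Their sum leaves out the other copies, linc-Nsfl1c-1 among them, and carries the same limit.

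**Figure D2:**
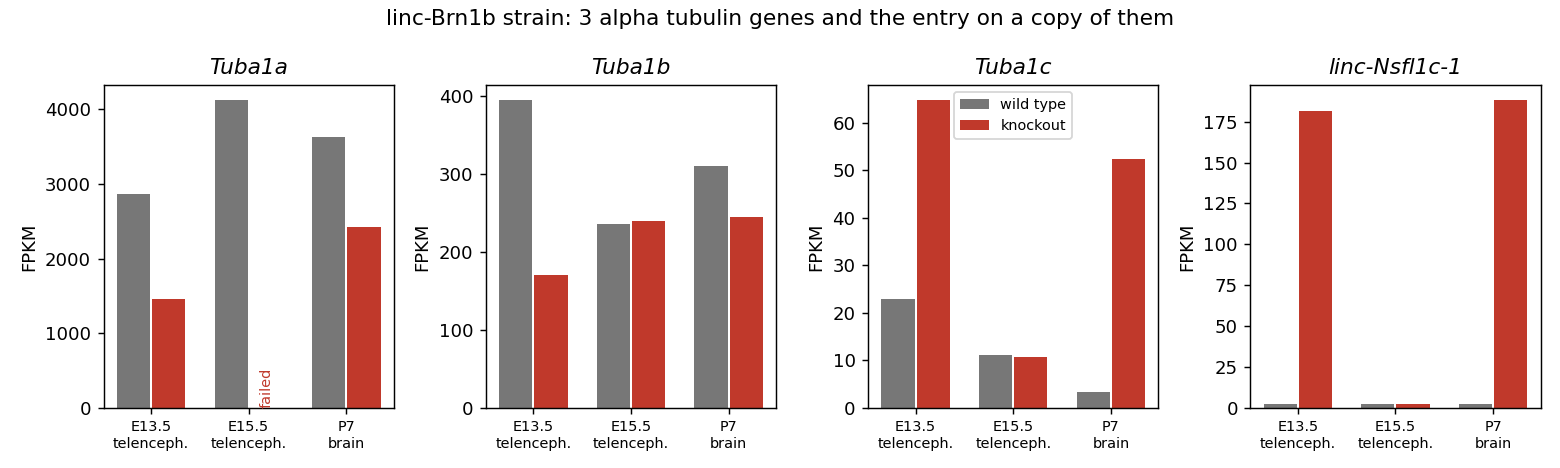
FPKM (linear axis from 0, 1 pooled value per bar) of Tuba1a, Tuba1b, Tuba1c and the noncoding entry linc-Nsfl1c-1 in wild type (grey) and linc-Brn1b-/- (red) at E13.5, E15.5 and P7. Tuba1c and linc-Nsfl1c-1 are high in knockout at E13.5 and P7, where Tuba1a and Tuba1b stand below wild type. The knockout value of Tuba1a at E15.5 is a failed estimate.

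The other alpha tubulins did not follow Tuba1c. Tuba4a stood at 4.87 FPKM in wild type and 4.11 in knockout at E13.5, 5.11 and 5.34 at E15.5, and 87.6 and 113 at P7, with log2 ratios of -0.20, 0.05 and 0.36. Tuba8 stood at 0.0829 and 0.0158 FPKM at E13.5 and 0.0656 and 0.0522 at E15.5, under the 1 FPKM minimum, and at 2.09 and 2.59 at P7. Neither gene passed 1.5-fold between genotypes by the rule used, and neither shares a 100-base window with another gene.

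The beta tubulins stayed within 1.5-fold of wild type. Tubb3, the neuronal beta tubulin, stood at 869 FPKM in wild type and 678 in knockout at E13.5, 1181 and 1185 at E15.5, and 1072 and 888 at P7. Tubb2b, a beta tubulin of migrating neurons, stood at 1276 and 1165, 1951 and 2005, and 1308 and 950. Tubb5, which is widely expressed in dividing progenitors and neurons, stood at 1366 and 1166, 1435 and 1410, and 856 and 750. Each of the 3 knockout values thus stood below the wild type one at E13.5 and P7 and was within 1.03-fold of it at E15.5. Tubb2a stood at 221 and 192, 398 and 442, and 1041 and 982. Tubb6, the least abundant beta member in these groups, stood at 9.95 and 9.57, 4.20 and 5.02, and 5.70 and 5.17. The 5 beta log2 ratios ran from -0.36 (Tubb3) to -0.05 (Tubb6) at E13.5 and from -0.46 (Tubb2b) to -0.08 (Tubb2a) at P7, and none passed 1.5-fold.

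Counted over the members, 1 of 9 that reached 1 FPKM was higher in knockout at E13.5 (Tuba1c) and 2 were lower (Tuba1a and Tuba1b), where 1.54% of all 13502 genes were higher and 5.49% were lower. At P7 1 of 10 was higher (Tuba1c) and 1 was lower (Tuba1a), beside 2.08% and 2.24% of 14175 genes. At E15.5 none of 8 was past the limit in either direction (0 and 0), beside 0.192% and 0.259% of 13518 genes. The P7 count rests on the difference by which the members were picked. The members' median log2 ratio was, in order of age, -0.20, 0.03 and -0.15, against 0.06, 0.01 and 0.01 over all genes. Genes with a mean of 100 to 1000 FPKM had medians of -0.16, 0.03 and -0.06. Those above 1000 FPKM had -0.23, 0.04 and -0.14. The abundant tubulins lie in these 2 classes and are counted in the medians. The class above 1000 FPKM is small, with 19 genes at E13.5 and 14 at P7. At E13.5 its median is the log2 ratio of Tubb5 itself, so the classes are not a background independent of the members.

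The lower level of Tuba1a and Tuba1b at E13.5 stood among many abundant genes that were also lower. Of 611 genes with a mean of 100 to 1000 FPKM, 159 (26.0%) were lower in knockout by 1.5-fold at E13.5, and of 19 genes above 1000 FPKM 5 (26.3%) were, whereas 3.44% of the genes from 1 to 10 FPKM were. At P7 the shares were 2.11% of 663 genes from 100 to 1000 FPKM and 2 of 14 genes above 1000 (14.3%), and at E15.5 they were 0.474% of 633 and 0 of 37. These counts include the tubulins themselves. At E13.5 Tuba1b is among the 159 and Tuba1a among the 5, and at P7 Tuba1a is among the 2. How far the level of expression bears on the tubulins was not tested.

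**Figure D3:**
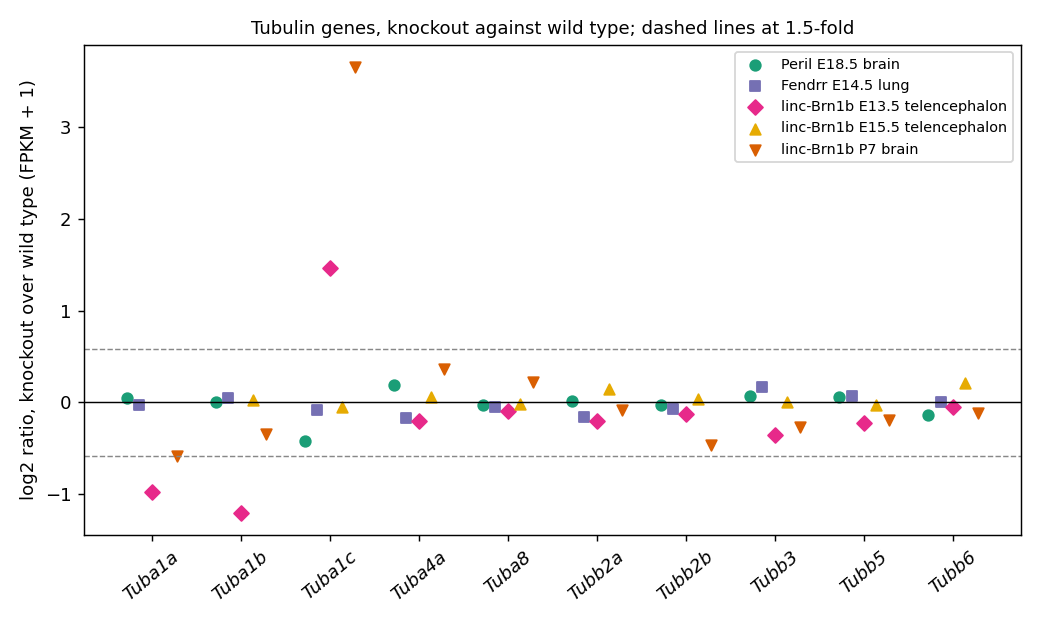
Log2 ratio of knockout over wild type (1 FPKM added to both) for each tubulin gene in the 5 comparisons, with dashed lines at 1.5-fold. Tuba1c lies at 3.66 (P7) and 1.46 (E13.5), Tuba1a and Tuba1b lie at -0.97 and -1.20 at E13.5, and nearly all other points lie between the lines.

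Summed over the family, alpha tubulin was lower than beta tubulin relative to wild type. The 5 alpha members summed to 3284 FPKM in wild type and 1695 in knockout at E13.5 (51.6% of wild type), and to 4040 and 2836 at P7 (70.2%). The 5 beta members summed to 3742 and 3211 at E13.5 (85.8%), 4970 and 5047 at E15.5 (102% of wild type), and 4281 and 3575 at P7 (83.5%). The ratio of the alpha sum to the beta sum was 0.878 in wild type and 0.528 in knockout at E13.5, and 0.944 and 0.793 at P7. In the E15.5 wild type it was 0.880, and in the E15.5 knockout the failed Tuba1a estimate leaves it undefined. The alpha sum and this ratio leave out the copies outside the members, linc-Nsfl1c-1 among them. Reads counted at such copies would be missing from the alpha sum, which was not tested. Tuba1a made up 87.1% of the alpha sum in the E13.5 wild type and 85.9% in the knockout, so the share of Tuba1a changed little while that of Tuba1c went from 0.695% to 3.82%. At P7 Tuba1c went from 0.0800% to 1.85% of the alpha sum.

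**Figure D4:**
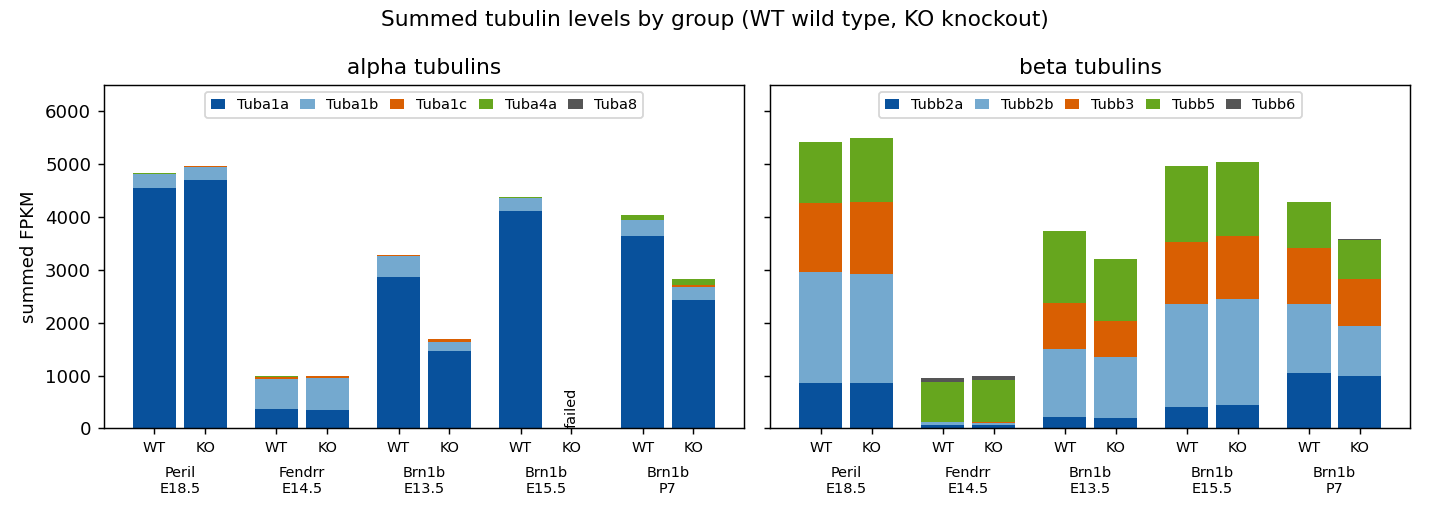
Summed FPKM of the 5 alpha (left) and 5 beta (right) tubulin genes in each group, stacked by gene, on a linear axis from 0. In linc-Brn1b-/- the alpha sum is 1695 against 3284 at E13.5 and 2836 against 4040 at P7, and the Peril and Fendrr pairs are nearly equal. The alpha sum of the E15.5 knockout is missing because Tuba1a failed there.

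The Peril brain and the Fendrr lung served as 2 further comparisons in which the same genes were measured. In the E18.5 brain of the Peril strain Tuba1c stood at 5.19 FPKM in wild type and 3.64 in the group read as knockout, a log2 ratio of -0.42. This was the largest difference among the members there, and Tuba1c was number 250 from the lowest ratio of 14405 genes. Tuba1a was at 4558 and 4695, Tuba1b at 257 and 257, Tubb2b at 2104 and 2061, Tubb3 at 1304 and 1366, Tubb5 at 1161 and 1205 and Tubb2a at 850 and 857. Among the low members Tuba4a was at 14.1 and 16.3, Tubb6 at 5.92 and 5.31 and Tuba8 at 0.473 and 0.445 FPKM. None of the 9 members that reached 1 FPKM passed 1.5-fold (0 of 9), where 0.958% of 14405 genes were higher and 0.666% lower. The log2 ratios of the alpha and beta sums were 0.04 and 0.02.

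In the E14.5 lung of the Fendrr strain the order of the isotypes was another one. Tuba1b led the alpha members with 570 FPKM in wild type and 590 in knockout, ahead of Tuba1a with 361 and 355, and Tuba1c stood at 46.7 and 44.2. Tubb5 made up 79.4% of the beta sum with 758 and 796 FPKM, and the neuronal Tubb3 stood at 4.31 and 4.95. Tubb6 was at 76.6 in both groups, Tubb2a at 61.7 and 55.2, Tubb2b at 54.0 and 51.3, Tuba4a at 9.73 and 8.54 and Tuba8 at 1.54 and 1.45. None of the 10 members passed 1.5-fold (0 of 10), beside 1.41% of 13968 genes higher and 0.73% lower. The log2 ratios of the alpha and beta sums were 0.01 and 0.04. Tuba1c was thus within 1.5-fold in the Peril and Fendrr comparisons. Were the Peril values read the other way round, as the entry on the deletion would have it, Tuba1c would stand 1.43-fold higher in knockout there, still within the limit.

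**Figure D5:**
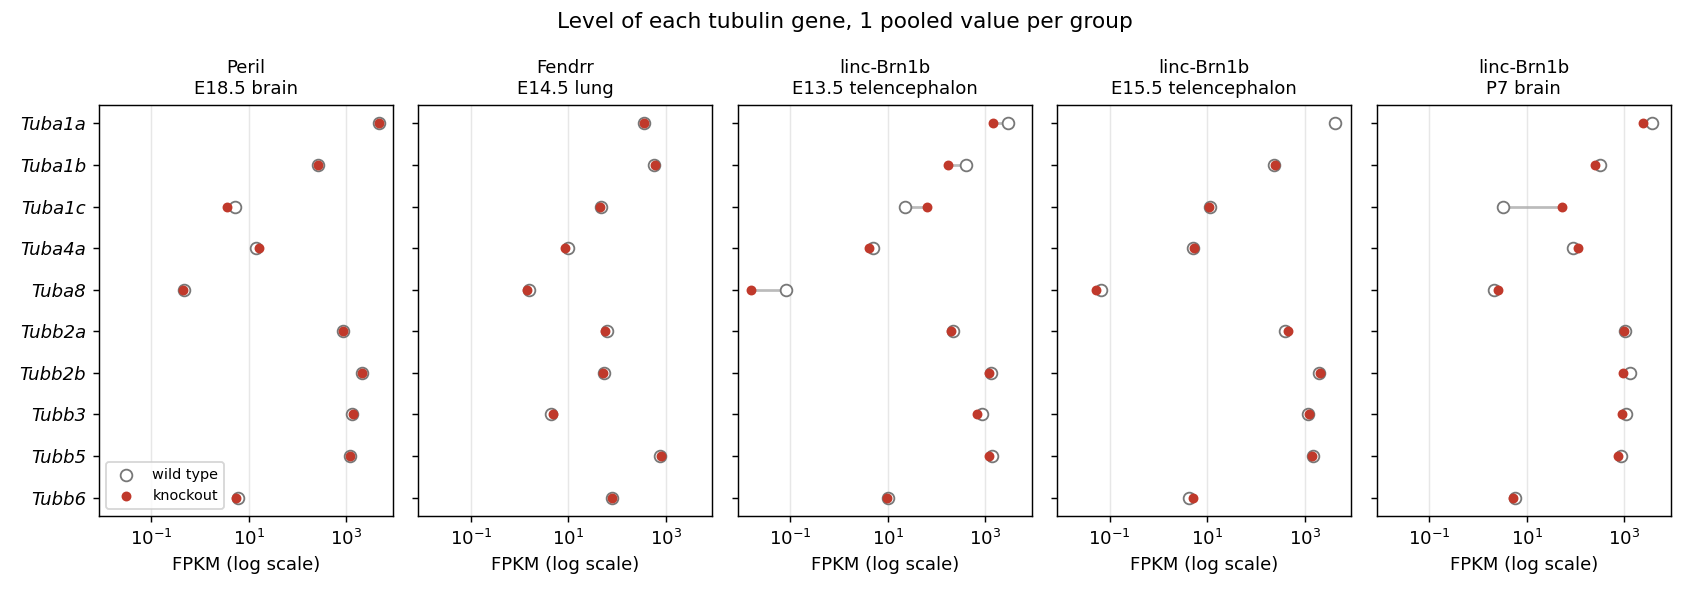
FPKM (log axis) of the 10 tubulin genes in wild type (open circles) and knockout (red points), 1 panel per tissue and age and 1 pooled value per point. The circles and points nearly coincide in the Peril, Fendrr and E15.5 panels, and Tuba1c is set apart at P7 (3.23 and 52.4). Tuba8 at E13.5 lies far below 1 FPKM in both groups.

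The isotypes changed with age in wild type linc-Brn1b tissue. From E13.5 to E15.5, both in telencephalon, Tubb2a was higher by 1.80-fold and Tubb2b by 1.53-fold, while Tuba1b was 1.67-fold, Tuba1c 2.05-fold and Tubb6 2.37-fold lower. These were 2 members higher and 3 lower of 9 that reached 1 FPKM, beside 8.66% of all genes higher and 8.05% lower. From E15.5 telencephalon to P7 brain Tuba4a was higher by 17.2-fold, Tubb2a by 2.61-fold and Tuba8 from 0.0656 to 2.09 FPKM, while Tuba1c was 3.44-fold and Tubb5 1.68-fold lower. These were 3 higher and 2 lower of 10, beside 23.5% and 27.2% of all genes. Tuba1c, like Tubb6, was thus among the isotypes that stood highest at the youngest age.

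Most but not all of these age differences were also seen in knockout. From E13.5 to E15.5 Tubb2a was higher by 2.30-fold, Tubb3 by 1.75-fold and Tubb2b by 1.72-fold, while Tuba1c was 6.06-fold and Tubb6 1.91-fold lower (3 higher and 2 lower of 8, beside 10.4% and 7.55% of all genes). Tuba1b, which was past the limit downward in wild type, went the other way in knockout, from 171 to 240 FPKM, 1.40-fold higher and within the limit. From E15.5 to P7 Tuba1c was higher by 4.91-fold, Tuba4a by 21.1-fold and Tubb2a by 2.22-fold, and Tuba8 went from 0.0522 to 2.59 FPKM. Over the same interval Tubb2b was 2.11-fold and Tubb5 1.88-fold lower (4 higher and 2 lower of 9, beside 24.5% and 27.4% of all genes). From E15.5 to P7 Tuba1c was thus lower at the later age in wild type and higher in knockout. The age comparisons share their E15.5 groups with each other and with the genotype comparisons.

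Few of the genes that act on tubulin passed 1.5-fold. Of 97 genes found from 7 lists, 86 reached 1 FPKM at E13.5, of which 0 were higher in knockout and 5 lower, beside 1.54% and 5.49% of all genes. With their levels in wild type and knockout, those that serve the folding of tubulin were the prefoldin subunits Pfdn5 (176 and 83.3 FPKM) and Pfdn4 (39.4 and 23.5) and the beta tubulin cofactor Tbca (208 and 114). The others were Stmn3 (188 and 116), a stathmin that binds free dimers, and Mzt2 (18.7 and 11.6), a part of the gamma tubulin ring complex that nucleates microtubules. At P7 2 of 90 were higher, Tppp (24.1 and 39.8 FPKM), which bundles microtubules, and Ttll7 (18.3 and 28.8), which adds glutamate chains to beta tubulin tails, and 0 were lower, beside 2.08% and 2.24% of all genes. At E15.5 and in the Peril brain 0 of 85 and 0 of 91 passed in either direction, and in the Fendrr lung 1 of 83 was lower, the platelet beta tubulin Tubb1 (4.53 and 2.05 FPKM). Pfdn5, Tbca and Stmn3 had means between 100 and 1000 FPKM, a class of which 26.0% were lower at E13.5. The folding list had a median log2 ratio of -0.15 at E13.5 and -0.21 at P7, with 17 and 18 of its 20 genes below 0, beside 0.06 and 0.01 over all genes. At the same ages the median was -0.16 and -0.06 for genes from 100 to 1000 FPKM, and 0.05 and 0.02 for genes from 10 to 100 FPKM. The part of expression level in the folding list was not tested. The list of proteins that bind along the microtubule had medians of 0.16 and 0.09. The other tubulin genes, 10 of which were found, had log2 ratios from -0.35 to 0.26 at E13.5, from -0.04 to 0.14 at E15.5 and from -0.20 to 0.44 at P7 among the 7 that reached 1 FPKM.

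The entries around Tuba1c on chromosome 15 were mostly within 1.5-fold. Of 10 entries starting within 200 kb of Tuba1c that reached 1 FPKM at E13.5, besides the tubulins, 0 were past 1.5-fold, and at E15.5 0 of 11 were. At P7 1 of 8 was higher, the potassium channel gene Kcnh3, with a log2 ratio of 0.79. The entry MSP58, which is given the same interval as Kcnh3, was lower in the Peril group read as knockout (1.84 and 0.872 FPKM) and in the Fendrr knockout (2.97 and 1.06), the 1 entry past the limit of 13 and of 11. With so few entries, counts of 0 or 1 cannot be told from the shares over all genes given above. Likeness across the 6 linc-Brn1b groups was ranked among named genes with a mean of at least 5 FPKM and no failed estimate. Symbols that start with XLOC, linc- or Gm and a digit, hold a comma or end in Rik were left out. Neither linc-Nsfl1c-1 nor Tuba1a could therefore be named. Of 9426 genes compared, those whose log2 level ran most like Tuba1c were Crat, Ythdc2, Thnsl1, Zc3h7b and Mark2 (Pearson r from 0.964 down to 0.947). Their levels moved over a small range, in Crat from 6.04 to 7.33 FPKM against 3.23 to 64.7 for Tuba1c. For Tubb3 they were Tmsb15b1, Acbd6, Chmp2a, Mrpl30 and Fam54b, with r from 0.990 to 0.981. The 6 points share genotypes and ages, and these values are descriptions.

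Markers of other cell types, the sex of the pools and the targeted loci were read beside these results. All 10 neuron markers reached 1 FPKM in every brain comparison and all 6 lung epithelium markers did so in the lung. The summed neuron markers were at 522 and 606 FPKM at E13.5 and at 1992 and 2086 at P7, in wild type and knockout. At P7, where 2.24% of all genes were lower, 8 of 10 proliferation markers (Top2a 13.1 and 5.64 FPKM, Mki67 7.33 and 3.18) and 5 of 9 oligodendrocyte markers (Mbp 292 and 161) were lower in knockout, and the lists summed to 58.5 and 27.8 FPKM and to 653 and 429. Of the neural progenitor markers 3 of 8 were lower there (Fabp7 919 and 508, Pax6 15.3 and 5.43), with sums of 1050 and 597 FPKM that are mostly Fabp7. Of the mesenchyme markers 3 of 7 were lower, with sums of 112 and 84.9. In these lists 2 progenitor and 2 oligodendrocyte markers stood above 0, with log2 ratios up to 0.22 and 0.49. Of 7 astrocyte markers 1 was lower (Aldh1l1 39.3 and 19.4) and 1 higher (Slc1a2 67.7 and 111), where 2.08% of all genes were higher. At E13.5, where 5.49% of all genes were lower, 5 of 7 mesenchyme markers (104 and 57.2 FPKM in sum) and 4 of 7 microglia markers (27.7 and 16.5) were lower. Of 4 erythroid markers only Hbb-b1 (106 and 34.8) was lower, and 1 stood above 0, with log2 ratios from -1.58 to 0.16. Erythroid markers were also lower in the Fendrr lung (3 of 5, beside 0.73% of all genes). In the Peril group read as knockout 2 of 3 were lower, beside 0.666%. At E15.5 3 of 4 choroid plexus and ependymal markers were lower, beside 0.259% of all genes, and Ttr among them went from 231 to 1.39 FPKM. At P7 2 of 6 of these markers were lower and 1 stood above 0. In the lung all 7 striated muscle markers that reached 1 FPKM were higher in knockout (174 and 502 FPKM in sum), beside 1.41% of all genes. Of these, Myl2 (0.884 and 8.16) reached the 1 FPKM mean only through the knockout group. In bulk tissue fewer cells of a type and less RNA per cell cannot be told apart, and the part of these markers in the tubulin values was not tested. Y-linked genes were at 8.23 to 16.5 FPKM in wild type and at most 0.00723 in knockout at E13.5, and the reverse at P7 (at most 0.0122 and 2.07 to 11.7), and Tuba1c was higher in knockout at both ages. At E15.5 the Y-linked genes stood as at P7 (at most 0.00554 and 2.53 to 9.94) with Tuba1c level, and in Peril too (at most 0.0184 and 2.90 to 13.2) with Tuba1c at 5.19 and 3.64. In the lung they stood as at E13.5 (at least 4.55 and 0). In each comparison 1 pool thus lacked Y-linked transcripts and the other held them, so that sex and genotype cannot be told apart within it. The transcript AK011913 at the linc-Brn1b deletion was at 8.71 and 0.0267 FPKM in the youngest telencephalon, at 8.73 and 0 in the E15.5 one and at 1.06 and 0.0123 in the P7 brain, and linc-Cox4nb-4 at the Fendrr deletion was at 38.4 and 0.0450.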

How the data were processed

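Total RNA was extracted from tissue homogenised in Trizol, and libraries were made with the TruSeq kit and read as paired ends. Per the methods, the authors aligned reads to mm9 with Tophat2 and ran Cuffdiff2, both at default settings, and the submitters' processing notes name Cufflinks 2.0.2. The deposited values are FPKM, 1 pooled value per group in 3 tables, with a flag for loci whose estimate failed, and a value of 0 under such a flag was treated as missing. The first value of each comparison was read as wild type and the second as knockout. The deposited tables also hold the authors' log2 fold changes, test statistics, p-values and q-values, which were not used. Depth is unknown. No column holds values per library (0), so no test, error or paired fit was computed here.

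Log2 ratios were taken of FPKM + 1, and genes with a mean of at least 1 FPKM were counted past 1.5-fold. Starts in the tables count from 0 and were raised by 1. Sequences and annotation are GENCODE vM1 on NCBIM37. Windows of 100 bases were matched without mismatch. The sequences themselves are not reported here. Work was done in Python 3.11.15 with pandas 2.3.3, numpy 2.4.6 and matplotlib 3.10.9, and the counting was tested on simulated data. The named genes are all members, the genes of the tubulin pathway lists past 1.5-fold, the neighbours within 200 kb that passed, the 5 genes most like Tuba1c and Tubb3, the entries on the deletions and the Y-linked genes, and cell type markers are given as counts with examples. The entry linc-Nsfl1c-1, Tuba3a and the other entries on copies, and the genes in the closing observations, were named after their values were seen. The counts and medians by level of expression were also added then. The members and lists were chosen with earlier results of these data known. Alternatives were pseudocounts of 0.1 and 5, log2 limits of 0.32 and 1, centring on the median gene, no filter, and sums over related genes.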

Additional observations from a re-analysis of the deposited data

How the results depend on the processing

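Of 86 alternatives over 22 results, 66 left the value the same, by the rules of 1.5-fold for a count and 0.1 for a log2 value. The P7 log2 ratio of Tuba1c (3.66) was 4.02 without a pseudocount, 3.98 with 0.1 and 2.80 with 5 FPKM added, and -0.54 for the sum of Tuba1a, Tuba1b and Tuba1c, which reverses its direction because the sum is dominated by Tuba1a. The 2 tubulin genes past the limit at P7 became 1 with 5 FPKM added or at 2-fold, and 5 at a log2 limit of 0.32. Tuba1a is the one lost, since it lies just past 1.5-fold. In the Peril brain the count went from 0 to 1 at that lower limit. Between ages, counts at 2-fold were 5 in wild type and 7 in knockout. For the genes of the lists, the count at the lower limit was 2 in Peril, 4 in Fendrr, 16 at E13.5 and 13 at P7. At 2-fold it was 0 in Fendrr, 1 at E13.5 and 0 at P7. With 5 FPKM added it was 0 in Fendrr and 1 at P7, and with 0.1 added it was 1 in Peril.

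No paired analysis was possible because the tables hold no values per library, and leaving out each library in turn could not be run for the same reason. Without depth, no limit can be set for the low values of Tuba8.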

Other observations

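Entries that were at least 4-fold higher in linc-Brn1b-/- (1 FPKM added) were compared between E13.5 and P7 after their values had been seen. There were 14 of 13502 at E13.5 and 17 of 14175 at P7, and 7 were on both lists (50.0% and 41.2%), of which 0 passed at E15.5. Tuba1c passed 4-fold at P7 but not at E13.5. The 7 were linc-Nsfl1c-1, BC002163, Gm5506, Gm6724, linc-Gpc5-4, linc-Dbc1 and linc-4933402J07Rik-5. At E13.5 and P7 all but linc-Nsfl1c-1 and Gm5506 were under 1 FPKM in wild type and reached the minimum only through the knockout group. At E15.5 BC002163, Gm6724, linc-Gpc5-4 and linc-4933402J07Rik-5 had means under 1 FPKM, so they could not be counted there. In wild type and knockout, Gm5506 was at 2.95 and 36.3 FPKM at E13.5 and 1.91 and 19.4 at P7. The entry linc-Dbc1 was at 0.714 and 62.5 FPKM at E13.5 and 0.949 and 14.7 at P7. Gm6724 was at 0.420 and 40.9 FPKM at E13.5 and 0.157 and 4.78 at P7.

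Sequence was searched for 6 of the 7 entries, and each of the 6 shared 100-base windows with the transcript of another gene. How many other entries do so was not counted, so that number is a description. Gm5506 shared 62.8% of its windows with the glycolytic enzyme gene Eno1, linc-4933402J07Rik-5 shared 76.1% with the ribosomal protein gene Rps13 and 85.2% with Rps13-ps1, and linc-Gpc5-4 shared 50.3% with the tropomyosin gene Tpm3 and 99.1% with Tpm3-rs7. The entry linc-Dbc1 shared 26.5% with Stmn1, a stathmin that binds tubulin dimers, and Gm6724 shared 14.1% with Hmgn2 and 16.8% with Gm10282. In wild type and knockout, Rps13 was at 613 and 231 FPKM at E13.5 and 300 and 235 at P7, Hmgn2 at 900 and 597 and at 223 and 130, Stmn1 at 1986 and 1742 and at 1606 and 1333, and Tpm3 at 167 and 152 and at 139 and 136. Of these, Rps13 at E13.5 and Hmgn2 at both ages were lower by 1.5-fold, where 26.0% of all genes from 100 to 1000 FPKM were lower at E13.5 and 2.11% at P7. Eno1 was at 4.38 and 5.33 FPKM at E13.5 and 2.52 and 3.15 at P7. Whether the shared sequence has a part in these values was not tested.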
